A study of Mus musculus with 6 samples.

Results

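The mitochondrial ribosomal protein genes are 77 of the 22564 protein-coding genes in the deposited table, and they were chosen by symbol: every gene whose symbol begins with Mrpl or Mrps followed by a digit. Of these, 47 are Mrpl genes, named for the large subunit, and 30 are Mrps genes, named for the small subunit. The data are from RNA immunoprecipitation followed by sequencing (RIP-seq), in which RNA bound to a protein is recovered with an antibody to that protein and sequenced, from mouse cultured germ stem cells. There were 2 libraries of RNA recovered with an IGF2BP1 antibody (IGF2BP1 RIP), 2 of RNA recovered with IgG (IgG RIP) and 2 of RNA taken without a pull-down (input). All 6 came from cells grown in MEM-alpha/StemPro-34 medium with GDNF and FGF2, each at 10 ng/ml, and the labels give no genotype, treatment, animal age or clone. The labels do not tell if replicate libraries are from different cultures, and the p-values therefore cover only how far these libraries differ.

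Mitochondria make the proteins of their own genome on ribosomes that consist of a large and a small subunit. The ribosomal RNA of these particles is encoded in the mitochondrion, whereas all their proteins are encoded in the nucleus, made in the cytosol and imported. Some of these proteins are homologues of bacterial ribosomal proteins and others are found in mitochondria only. IGF2BP1 is an RNA-binding protein of the cytoplasm that associates with many mRNAs and is known for effects on their stability, localization and translation.

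Fragments on genes numbered 2793425 and 2836942 in the IGF2BP1 pull-downs, 2558673 and 2723451 in the IgG pull-downs and 1639251 and 1693165 in the input libraries. The biological coefficient of variation between the 2 libraries of a group was 7.76% in IGF2BP1 RIP, 49.8% in IgG RIP and 6.75% in input, so the spread was widest between the IgG pull-downs. All 10 markers fixed for germ stem cells passed the filter on low counts, with a summed level of 4004 and 4165 CPM (fragments scaled to library size after TMM) in the IGF2BP1 pull-downs, 3460 and 3463 CPM in the IgG pull-downs and 3825 and 3695 CPM in the input libraries. The 8 fibroblast and feeder markers and the 8 macrophage markers all passed as well, at 3132 to 4048 CPM and 2936 to 3579 CPM in sum over the 6 libraries. Of the 6 Sertoli and Leydig markers 2 passed, and Amh and Cyp17a1 had 0 fragments in every library. In such bulk libraries fewer cells of a type and less RNA per cell cannot be told apart.

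Transcripts of the mitochondrial ribosome were detected broadly. Of the 77 genes, 76 passed the filter on low counts and were tested. The exception was Mrps36-ps1, a gene whose symbol marks it as a pseudogene copy of Mrps36, with 2 to 4 fragments per library. Its reads cannot be told with certainty from those of Mrps36, whose protein, despite its name, belongs to the 2-oxoglutarate dehydrogenase complex. Every other member had fragments in all 6 libraries, except Mrps33 and Mrps18c, which each had 0 fragments in 1 IgG library. The median member had 75 and 78 fragments in the IGF2BP1 pull-downs, 76 and 68 in the IgG pull-downs and 58 and 57 in the input libraries, so a change of a single gene rests on modest counts.

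Together the members took 0.247% and 0.235% of all fragments in the IGF2BP1 pull-downs, 0.259% and 0.246% in the IgG pull-downs and 0.292% and 0.289% in the input libraries. Both pull-downs lay below input, and the IGF2BP1 and IgG libraries overlapped. Mrpl genes together had 1.59 and 1.55 times the fragments of Mrps genes in IGF2BP1 RIP, 1.49 and 1.53 times in IgG RIP, and 1.53 times in each input library. With 2 libraries against 2, no permutation test of such a sum can reach 0.05, and none is given.

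Levels of different genes were compared only per length. For each gene the level in CPM was divided by a length index, the ratio of the deposited count to the deposited FPKM, and set against the median tested gene of the same group. In input the median member stood at 2.53 times the median tested gene, with 2.59 times for Mrpl and 2.495 times for Mrps genes. In total 65 of 76 members lay above the median tested gene in input, as did 62 in IGF2BP1 RIP and 65 in IgG RIP.

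The highest levels per length among Mrpl genes in input were those of Mrpl52, a protein of the large subunit found in mitochondria only, at 18.5 times the median tested gene, Mrpl42 at 8.54 times and Mrpl18, the homologue of a bacterial protein, at 5.93 times. Among Mrps genes the highest were Mrps14 at 10.4 times, Mrps21 at 9.85 times and Mrps5 at 9.62 times, all 3 homologues of bacterial small subunit proteins. The lowest Mrpl genes were Mrpl11 at 0.489 times, Mrpl50 at 0.692 times and Mrpl35 at 0.697 times. The lowest Mrps genes were Mrps34 at 0.859 times, Mrps31 at 0.873 times and Mrps27, a protein with RNA-binding repeats, at 0.940 times. These ranks depend on the length index, which was not checked against annotated transcript lengths. It was 0.858 for Mrpl52, against 10.0 for Mrpl11, 7.18 for Mrpl50 and 13.1 for Mrpl35. Before division by length Mrpl52, at a mean of 65.7 CPM in input, lay below Mrpl18, at 94.4 CPM.

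IGF2BP1 RIP against IgG RIP asks which transcripts came down with the IGF2BP1 antibody beyond what came down with IgG. Mrps14 and Mrpl42 were higher in IGF2BP1 RIP by more than 2-fold, Mrpl33 and Mrps18a were lower by more than 2-fold, and the other 72 tested members did not pass. In this comparison 7.07% of all 12053 tested genes were called, 3.29% higher and 3.78% lower, so 2 higher and 2 lower of 76 is close to the background. Calls are genes with an adjusted p below 0.05 in edgeR's quasi-likelihood test over all 6 libraries, with Benjamini-Hochberg adjustment over all tested genes. Each SE is the absolute log2 fold change over the square root of the F value of that test. It thus rests on a spread estimated over all 6 libraries and not only on the 2 groups compared.

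Mrps14 (ENSMUSG00000058267, chromosome 1, 160195215 to 160202170, plus strand) encodes a protein of the small subunit that has a bacterial homologue. Its level was 73.6 and 75.2 CPM in the IGF2BP1 pull-downs, 32.2 and 31.0 CPM in the IgG pull-downs and 123 and 114 CPM in the input libraries. The 3 groups did not overlap, with both IgG libraries lowest and both input libraries highest. The log2 fold change of IGF2BP1 RIP over IgG RIP was 1.23 ± 0.17 (SE, n = 2 each; adjusted p = 0.00892, edgeR). With only these 2 groups in the model the adjusted p was 0.0749. On the deposited FPKM values the log2 difference was 2.15 on the log2(FPKM + 1) scale, with an adjusted p of 0.0845 in limma.

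Mrpl42 (ENSMUSG00000062981, chromosome 10, 95480806 to 95501938, minus strand) encodes a protein found in mitochondrial ribosomes only. Its level was 61.9 and 61.8 CPM in the IGF2BP1 pull-downs, 24.4 and 30.3 CPM in the IgG pull-downs and 68.2 and 58.6 CPM in the input libraries. Both IgG libraries were low, whereas IGF2BP1 RIP lay within the range of input. The log2 fold change over IgG RIP was 1.17 ± 0.22 (SE, n = 2 each; adjusted p = 0.0238, edgeR), and the adjusted p was 0.102 with only the 2 groups in the model.

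Mrpl33 (ENSMUSG00000029142, chromosome 5), the homologue of a small bacterial large-subunit protein, ran the other way. It had 6.40 and 7.77 CPM in the IGF2BP1 pull-downs, 34.5 and 43.7 CPM in the IgG pull-downs and 21.7 and 24.9 CPM in the input libraries. The groups did not overlap, with both IGF2BP1 libraries lowest and both IgG libraries highest. The log2 fold change over IgG RIP was -2.46 ± 0.33 (SE, n = 2 each; adjusted p = 0.00866, edgeR), and the adjusted p was 0.0538 with only the 2 groups in the model. On FPKM the log2 difference was -0.85 on the same scale, with an adjusted p of 0.410 in limma.

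Mrps18a (ENSMUSG00000023967, chromosome 17) carries a small subunit name, but in mammalian structures its protein lies in the large subunit. It had 18.5 and 14.5 CPM in the IGF2BP1 pull-downs, 46.95 and 51.2 CPM in the IgG pull-downs and 22.9 and 27.2 CPM in the input libraries. Both IgG libraries stood above the other 4. The log2 fold change over IgG RIP was -1.57 ± 0.27 (SE, n = 2 each; adjusted p = 0.0202, edgeR), and the adjusted p was 0.0827 with only the 2 groups in the model. In the deposited table Mrps18a shares 1 merged locus span with other genes, 39 in all, and Mrpl33 shares one with others, 3 in all, so how fragments were divided between neighbours is uncertain for both.

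**Figure D1:**
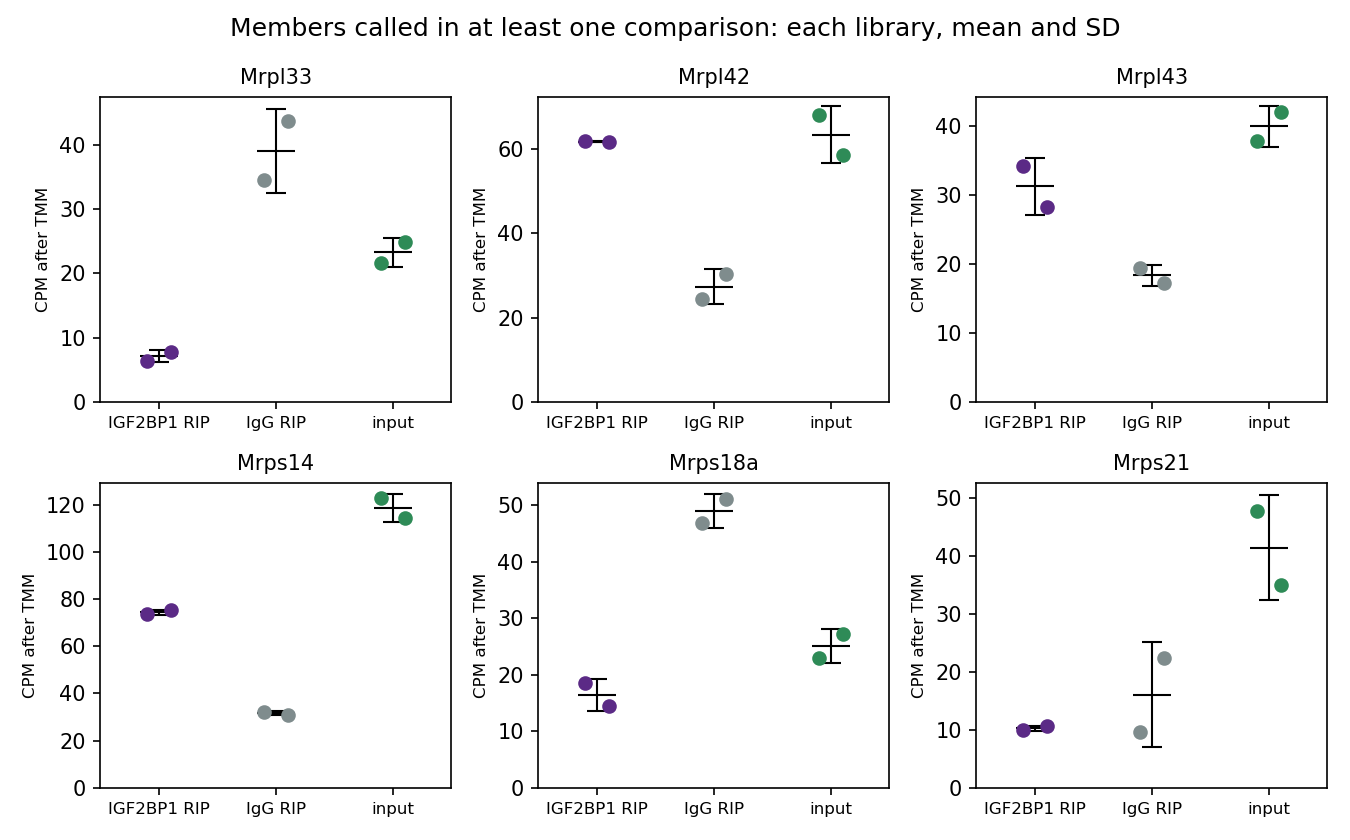
Level in CPM after TMM (y axis, from 0) of the 6 members called in at least 1 comparison, with IGF2BP1 RIP, IgG RIP and input from left to right, each library as a point and the mean and SD over 2 libraries as a bar. Mrps14 and Mrpl42 are lowest in IgG RIP, Mrpl33 and Mrps18a are highest there, and Mrps21 is highest in input at 47.8 and 34.9 CPM.

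The calls over IgG RIP depended on how the spread was estimated. No member was called with only the 2 groups in the model, in which 0.317% of tested genes were called higher and 0.916% lower, and in the model with all groups 16 of 76 members had an unadjusted p under 0.05, as did 25.3% of all tested genes. DESeq2 over all libraries called 2 members higher and 2 lower, where 6.75% of all tested genes were called. Without IgG library 1 the number of members called was 35, where 47.0% of all tested genes were called, and without IgG library 2 it was 34, where 44.6% were, with the remaining IgG library assumed to vary like the other groups. Without any 1 of the IGF2BP1 or input libraries it was 0, where 0.382% to 1.20% of all tested genes were called.

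Genes that encode mitochondrial ribosomal proteins have been described as rich in binding motifs of the ETS and YY1 transcription factors. Promoters from RefSeq on GRCm38.p6, 250 bases before to 50 after the start, matched 67 of the 77 members. The letters CCGGAAG of the ETS motif were found on either strand in 24 of 67 members, or 35.8%, against 9.93% of all 27025 genes with a promoter. The letters AAGATGGC of the YY1 motif were found in 12 of 67 members, or 17.9%, against 3.19% of all genes. All genes with a promoter include many that were not tested here, whereas nearly all members were. The shares among tested genes alone were not counted. Neither motif lies within the other. These are matches of letters and not sites of binding, and the promoter is not part of the RNA that was pulled down.

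The 120 bases before the RefSeq start of 4 members called in a comparison are shown to set the 2 that were higher over IgG RIP beside 2 others. The called members Mrpl33 and Mrps21 are not shown, so the 4 are not a full set. Each runs 5′ to 3′ on the gene's own strand, with motif letters on either strand in capitals.
Mrps14, chr1:160195095-160195214, plus strand: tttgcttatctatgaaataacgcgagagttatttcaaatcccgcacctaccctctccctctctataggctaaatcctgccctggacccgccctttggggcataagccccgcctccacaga
Mrpl42, chr10:95501950-95502069, minus strand: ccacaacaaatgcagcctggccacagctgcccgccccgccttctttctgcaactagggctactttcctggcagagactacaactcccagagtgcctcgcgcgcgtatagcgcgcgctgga
Mrps18a, chr17:46110884-46111003, plus strand: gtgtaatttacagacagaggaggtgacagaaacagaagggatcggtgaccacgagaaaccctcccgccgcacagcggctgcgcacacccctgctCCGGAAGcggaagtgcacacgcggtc
Mrpl43, chr19:45006443-45006562, minus strand: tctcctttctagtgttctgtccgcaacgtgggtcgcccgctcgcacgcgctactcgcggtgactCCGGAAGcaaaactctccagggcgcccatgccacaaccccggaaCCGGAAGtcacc
Mrps14 and Mrpl42 held none of the motif letters in this stretch, Mrps18a held the ETS letters once, and Mrpl43 held them at 2 places. The stretch is shorter than the promoters counted above. Whether motif letters go with the calls was not tested, and it cannot be read from these 4 genes.

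Many of these genes start back to back with a neighbour. Among the 67 members matched to RefSeq, 25, or 37.3%, had a gene on the other strand starting within 1000 bases upstream, against 19.7% of 9362 tested genes. In 1 case both genes of the pair are members: Mrpl46 and Mrps11, whose starts face away from each other. The bases that separate the starts are shown on the strand of Mrps11 because so few bases separate the starts.
Mrps11 and Mrpl46, chr7:78783090-78783130, plus strand: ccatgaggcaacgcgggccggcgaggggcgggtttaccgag
These 41 bases held none of the motif letters.

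The transcripts of this pair lay on opposite sides of IgG RIP, although neither passed the test. Mrpl46 had 57.6 and 48.0 CPM in the IGF2BP1 pull-downs, 17.8 and 41.5 CPM in the IgG pull-downs and 39.7 and 40.3 CPM in the input libraries. Its log2 fold change over IgG RIP was 0.83 ± 0.37 (SE, n = 2 each; adjusted p = 0.220, edgeR), with 0.35 without IgG library 1 and 1.56 without IgG library 2. Mrps11, named here after its values were seen because it is the partner of Mrpl46, had 16.4 and 14.1 CPM in the IGF2BP1 pull-downs, 33.8 and 21.3 CPM in the IgG pull-downs and 19.8 and 16.0 CPM in the input libraries. Its log2 fold change over IgG RIP was -0.85 ± 0.37 (SE, n = 2 each; adjusted p = 0.200, edgeR), with -0.48 without IgG library 1 and -1.14 without IgG library 2. IGF2BP1 RIP did not overlap IgG RIP for either gene, the difference between the genes was not tested, and both carry the same merged span in the table, so the division of fragments between them is uncertain.

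As a group the members did not stand apart from other genes in IGF2BP1 RIP against IgG RIP. Their median log2 fold change was -0.11, against -0.01 over all tested genes. The median was -0.03 for the 47 Mrpl genes and -0.14 for the 29 tested Mrps genes, and 43 of 76 members were below 0, where 50.8% of all tested genes were. Members whose IGF2BP1 libraries both lay above both IgG libraries numbered 20, and 20 lay below, where 27.4% and 24.7% of all tested genes did so. Of these, 11 Mrpl and 9 Mrps genes lay above, and 12 Mrpl and 8 Mrps genes lay below.

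Besides the called genes, the Mrpl members with the highest fold change over IgG RIP were Mrpl40, at 0.90, and Mrpl46, and those with the lowest were Mrpl53, at -2.03 with an adjusted p of 0.0797 in edgeR, and Mrpl48, at -0.998 ± 1.01 (SE). Mrpl40 was at 0.48 without IgG library 1 and 1.48 without IgG library 2. Mrpl48 had 4.98 and 4.24 CPM in the IGF2BP1 pull-downs, against 16.7 and 1.87 CPM in the IgG pull-downs, so no direction can be read: its log2 fold change was 1.28 without IgG library 1, -1.84 without IgG library 2 and 1.04 on FPKM with 1 added. Mrpl53, found in mitochondria only, had 2.85 and 3.18 CPM in the IGF2BP1 pull-downs, 15.1 and 9.72 CPM in the IgG pull-downs and 8.06 and 8.88 CPM in the input libraries. Both IGF2BP1 libraries were thus lowest, on 8 and 9 fragments. Mrps18c and Mrps33 had the highest fitted values among Mrps genes, at 1.66 ± 1.14 and 1.52 ± 1.14 (SE; adjusted p = 0.419 and 0.460, edgeR). For Mrps33 the fragments numbered 23 and 17 in IGF2BP1 RIP, against 0 and 13 in IgG RIP. For Mrps18c 1 IgG library was at 0 too, so both fitted fold changes rest on IgG libraries that lie far apart. Without IgG library 1 and without IgG library 2 they were 6.55 and 0.67 for Mrps18c, and 0.54 and 7.04 for Mrps33. For 6.55 and 7.04 the IgG library left had 0 fragments, so their size depends on the prior count. Mrps34 at -1.30 ± 0.49 and Mrps28 at -1.16 ± 0.86 (SE) were the lowest after Mrps18a, and neither passed. The IgG libraries of Mrps28, at 3.10 and 23.2 CPM, lay on both sides of its 6.40 and 5.30 CPM in IGF2BP1 RIP, and its fold change was -1.98 without IgG library 1 and 0.90 without IgG library 2.

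The Mrps18 paralogs, 3 copies related to 1 bacterial protein, gave 3 different pictures. Mrps18a was called lower over IgG RIP, as above. Mrps18b had 34.1 and 41.7 CPM in the IGF2BP1 pull-downs, 31.8 and 24.3 CPM in the IgG pull-downs and 29.8 and 33.8 CPM in the input libraries, and its log2 fold change over IgG RIP was 0.43 ± 0.27 (SE, n = 2 each; adjusted p = 0.362, edgeR). Mrps18c had 13 and 15 fragments in the IGF2BP1 pull-downs, 8 and 0 in the IgG pull-downs and 37 and 18 in the input libraries, so it lay highest in input. The differences between the paralogs were not tested.

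IGF2BP1 RIP against input sets the recovered RNA beside RNA that saw no antibody. Here the members lay below input as a group. Their median log2 fold change was -0.32, against 0.00 over all tested genes, and 60 of 76 members were below 0, where 49.8% of all tested genes were. The median was -0.34 for Mrpl genes, 39 of 47 of them below 0, and -0.28 for Mrps genes, 21 of 29 below 0. Both IGF2BP1 libraries lay below both input libraries in 45 members and above them in 6, where 33.4% and 33.5% of all tested genes did so.

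Of the 76 members 2 were called lower and 0 higher in edgeR over all libraries, and 9 had an unadjusted p under 0.05. Of all tested genes 5.97% were called, 3.76% lower and 2.21% higher, and 20.8% had an unadjusted p under 0.05. Mrps21 (ENSMUSG00000054312, chromosome 3), the homologue of a small bacterial protein, had 9.96 and 10.6 CPM in the IGF2BP1 pull-downs, 9.70 and 22.4 CPM in the IgG pull-downs and 47.8 and 34.9 CPM in the input libraries. Both pull-downs lay below both input libraries. The log2 fold change of IGF2BP1 RIP over input was -2.002 ± 0.457 (SE, n = 2 each; adjusted p = 0.0487, edgeR). Mrpl33, with the values given above, fell by 1.71 ± 0.34 on the log2 scale over input (SE, n = 2 each; adjusted p = 0.0304, edgeR). On FPKM with 1 added Mrps21 was at -0.93 and Mrpl33 at -0.62 over input, and neither passed (adjusted p = 0.108 and 0.434, limma). The median of all tested genes lay at 0.68 on that scale, so both were farther below other genes than below 0. The call of Mrps21 was also lost without a filter on low counts (adjusted p = 0.0676, edgeR) and with the replicate number as a block (adjusted p = 0.0693, edgeR). Both genes carry a merged span in the table, which Mrps21 shares with others, 26 in all.

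With the model restricted to IGF2BP1 RIP and input, which leaves out the spread of the IgG libraries, 20 members were called lower and 0 higher, among them 12 Mrpl and 8 Mrps genes. In that model 19.1% of 11338 tested genes were called lower and 17.0% higher. The named genes among the 20 were Mrpl11, Mrpl14, Mrpl18, Mrpl32, Mrpl33, Mrpl52, Mrpl53, Mrps12, Mrps14, Mrps18c, Mrps21 and Mrps33. Mrps12, the homologue of a protein of the bacterial decoding centre, had 16.4 and 12.7 CPM in the IGF2BP1 pull-downs, 7.76 and 22.1 CPM in the IgG pull-downs and 39.1 and 36.1 CPM in the input libraries. Both IGF2BP1 libraries lay below both input libraries, at a log2 fold change of -1.37. Mrpl18 had 62.6 and 49.8 CPM in the IGF2BP1 pull-downs, 80.7 and 26.5 CPM in the IgG pull-downs and 102 and 87.1 CPM in the input libraries. It lay 0.75 lower on the log2 scale. Its IgG libraries both lay below both input libraries, and were too far apart to place against IGF2BP1 RIP.

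Mrps14 thus lay above IgG RIP and below input. Its log2 fold change of IGF2BP1 RIP over input was -0.67 ± 0.16 (SE, n = 2 each), with an adjusted p of 0.0564 in edgeR over all libraries and 6.1e-05 with only the 2 groups in the model. Mrpl42 was at -0.04 over input, with an adjusted p of 0.955 in edgeR. The members highest over input stayed close to it and none passed. They were Mrpl46 at 0.40, Mrpl49 at 0.40 and Mrpl10, the homologue of a bacterial stalk protein, at 0.30, with Mrps27 at 0.35, Mrps2 at 0.30 and Mrps18b at 0.25.

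**Figure D2:**
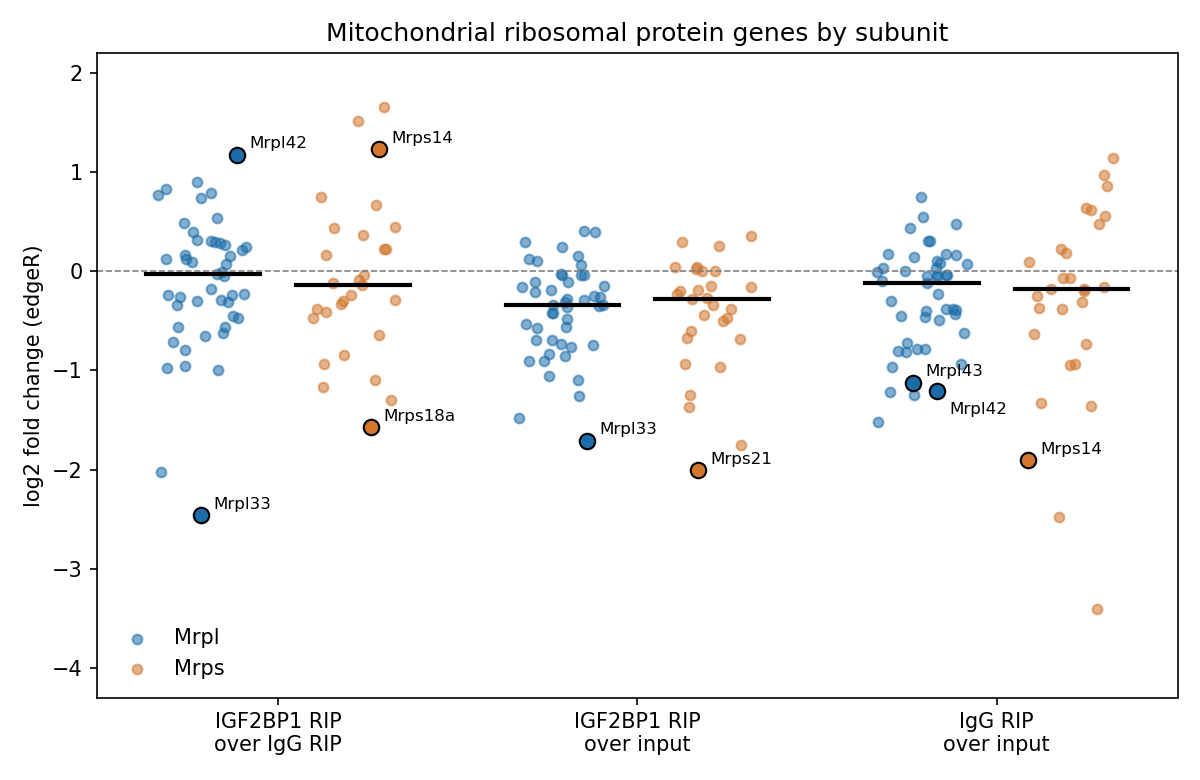
Log2 fold change (y axis) of the 47 Mrpl and 29 tested Mrps genes in the 3 comparisons, each gene a point, medians as black bars, and genes called at an adjusted p under 0.05 outlined and named. The medians over input for IGF2BP1 RIP are -0.34 for Mrpl and -0.28 for Mrps, and the medians over IgG RIP are -0.03 and -0.14.

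The distance from input ran with transcript length. Members are short: their median length index was 3.08, against 8.63 over all tested genes, on a relative scale. Split into 4 classes of 19 members from short to long, the median log2 fold change of IGF2BP1 RIP over input was -0.83, -0.47, -0.11 and -0.20, with 19, 16, 11 and 14 members below 0. All tested genes of the same 4 length ranges had medians of -0.81, -0.33, -0.10 and 0.06, so members lay near other genes of their length in the 3 shorter classes. Across the 76 members the log2 length index and the log2 fold change had a Pearson r of 0.51 and a Spearman rho of 0.51, against 0.22 and 0.17 over 12043 tested genes. IgG RIP over input ran the same way, with medians of -0.38, -0.20, -0.06 and -0.05 for members. All tested genes of the same ranges had medians of -0.45, -0.32, -0.18 and -0.01 there. The Spearman rho in IgG RIP over input was 0.18 across members and 0.21 over all tested genes. A trend with length was thus seen in both pull-downs, but across members it was weaker in IgG RIP, and both comparisons share the input libraries. In IGF2BP1 RIP over IgG RIP the medians of members were -0.29, 0.21, 0.09 and -0.14. Those of all tested genes were -0.34, -0.04, 0.06 and 0.05. The Spearman rho there was 0.14 across members and -0.07 over all tested genes. These are descriptions across genes that share the same libraries, and the length index itself comes from those libraries.

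The calls followed the same classes. With only the 2 groups in the model, 10, 5, 3 and 2 of 19 members were called lower over input from the shortest to the longest class, where 60.05%, 32.8%, 20.5% and 14.98% of all tested genes of those ranges were. Mrps21, with a length index of 1.01, and Mrpl52, with 0.858, were the shortest named members, and Mrps21 was among the lowest over input. Mrpl52 had 33.8 and 36.4 CPM in the IGF2BP1 pull-downs, 87.7 and 50.5 CPM in the IgG pull-downs and 64.5 and 66.9 CPM in the input libraries. Its IGF2BP1 libraries lay below all others, at -0.90 over input and -0.98 over IgG RIP (adjusted p = 0.119 and 0.0824, edgeR). Mrpl11, the homologue of a protein near the bacterial factor-binding site, did not run with the others, as it has a length index of 10.0 and lay at -0.86 over input. Whether length has a part in the difference from input was not tested.

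**Figure D3:**
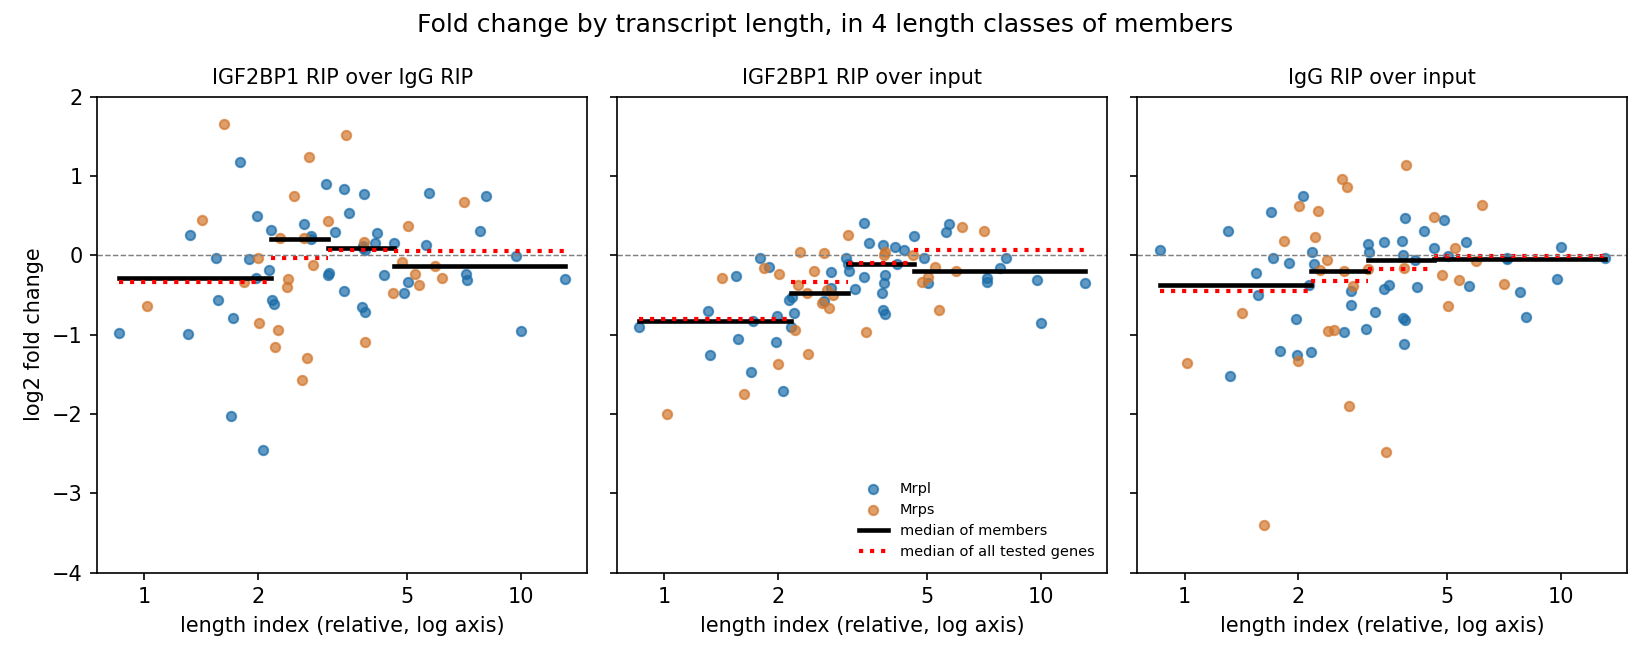
Log2 fold change (y axis) of each tested member against its length index (x axis, relative, log scale) in the 3 comparisons, with the median of members (black) and of all tested genes (red, dotted) in 4 length ranges. In IGF2BP1 RIP over input the medians of members run from -0.83 in the shortest class to -0.20 in the longest, and those of all tested genes from -0.81 to 0.06.

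IgG RIP against input shows what a pull-down without the IGF2BP1 antibody did to the same transcripts. The members lay below input here too, at a median of -0.18 against 0.00 over all tested genes, with 50 of 76 below 0 where 50.2% of all tested genes were. The median was -0.11 for Mrpl and -0.18 for Mrps genes. Both IgG libraries lay below both input libraries in 29 members and above them in 12, where 28.5% and 25.3% of all tested genes did so.

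Of the 76 members 3 were called lower and 0 higher, and 17 had an unadjusted p under 0.05 in edgeR, where 9.09% of all tested genes were called, 4.90% lower and 4.19% higher, and 26.6% had an unadjusted p under 0.05. Mrps14 was at -1.90 ± 0.17, Mrpl42 at -1.21 ± 0.22 and Mrpl43 at -1.12 ± 0.27 (log2, SE, n = 2 each; adjusted p = 0.00302, 0.0191 and 0.0458, edgeR). On FPKM with 1 added Mrpl42 was at -0.55 and kept its call, and Mrpl43 was at -0.44 and lost it (adjusted p = 0.0386 and 0.151, limma), where the median of all tested genes lay at 0.56. The call of Mrpl43 was also lost without a filter (adjusted p = 0.0716, edgeR), in DESeq2 (adjusted p = 0.0922) and with the replicate number as a block (adjusted p = 0.0781, edgeR). Mrpl43 (ENSMUSG00000025208, chromosome 19, 45005014 to 45006442, minus strand), a protein of mitochondria only, had 34.1 and 28.2 CPM in the IGF2BP1 pull-downs, 19.4 and 17.2 CPM in the IgG pull-downs and 37.8 and 42.1 CPM in the input libraries. Both IgG libraries lay below all others and IGF2BP1 RIP lay between the 2 controls. With only the 2 groups in the model Mrps14 alone was called, at an adjusted p of 0.0250, where 1.20% of tested genes were called lower and 1.09% higher. The 2 members called higher in IGF2BP1 RIP over IgG RIP are thus also 2 of the 3 called lower in IgG RIP over input, and these comparisons share the IgG libraries.

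At the other end Mrps10 was at 1.14, Mrps18a at 0.97 and Mrps34 at 0.85 over input in IgG RIP, with Mrpl33 at 0.75, Mrpl53 at 0.55 and Mrpl24 at 0.47, and none passed. Mrps10, the homologue of a bacterial small subunit protein, had 17.1 and 14.8 CPM in the IGF2BP1 pull-downs, 34.9 and 33.3 CPM in the IgG pull-downs and 16.7 and 14.2 CPM in the input libraries. Its IgG libraries lay close together and above the other 4, which overlapped. Its adjusted p in edgeR was 0.0749 for IGF2BP1 RIP over IgG RIP and 0.0655 for IgG RIP over input. The direction over IgG RIP turned on FPKM, with a log2 fold change of -1.09 in edgeR and 0.18 on the log2(FPKM + 1) scale. The lowest Mrpl genes over input in IgG RIP were Mrpl14 at -1.52, Mrpl27 at -1.25 and Mrpl32 at -1.22, none of them called. Mrpl27 was at -0.44 without IgG library 1 and -3.31 without IgG library 2. As background, the protein of Mrpl32 is cut by a mitochondrial protease before it is built into the ribosome.

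Agreement between the libraries of a group set what could be seen. No member differed over 2-fold between the 2 IGF2BP1 libraries, where 4.75% of all tested genes did, whereas 22 of 76 did between the 2 IgG libraries, where 28.2% of all tested genes did, and 2 did in input, where 6.50% did. The 22 were 11 Mrpl and 11 Mrps genes. Mrps2, the homologue of a bacterial small subunit protein, had 60.5 and 48.4 CPM in the IGF2BP1 pull-downs, 59.8 and 8.97 CPM in the IgG pull-downs and 44.0 and 44.4 CPM in the input libraries. Mrpl34, named after its values were seen, had 6.40 and 10.9 CPM in the IGF2BP1 pull-downs, 29.5 and 0.748 CPM in the IgG pull-downs and 18.6 and 12.4 CPM in the input libraries. For Mrpl34 the IgG libraries alone span the values of all others, for Mrps2 they span all but the first IGF2BP1 library, and no order against IgG RIP can be read for either.

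**Figure D4:**
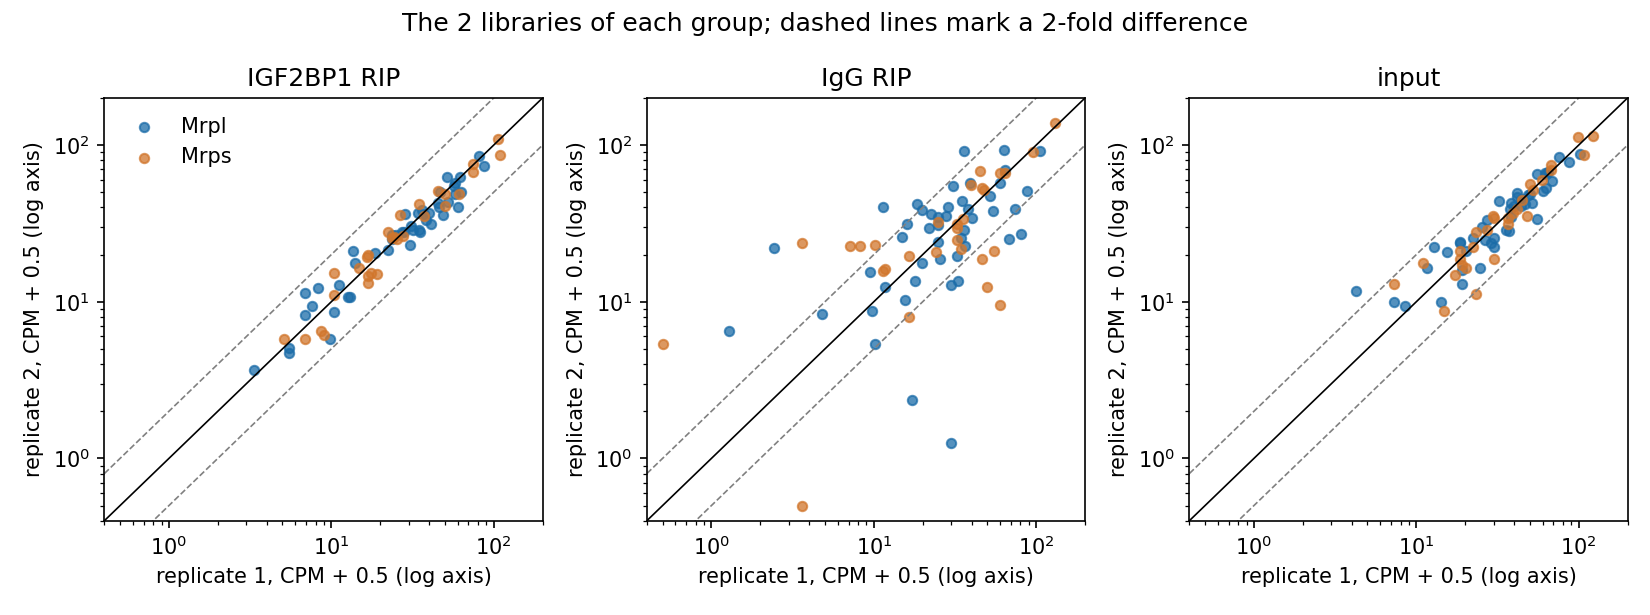
Level of each tested member in replicate 1 (x axis) and replicate 2 (y axis) of IGF2BP1 RIP, IgG RIP and input, as CPM + 0.5 on log axes, with equality as a solid line and a 2-fold difference as dashed lines. The number of members over 2-fold apart, counted on CPM without the added 0.5, is 0 in IGF2BP1 RIP, 22 in IgG RIP and 2 in input.

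Mrpl and Mrps genes were compared by their medians, as a description with no test. In each library the median log2 level over input was -0.24 and -0.34 for Mrpl and -0.29 and -0.32 for Mrps genes in IGF2BP1 RIP, and -0.23 and -0.31 for Mrpl and -0.16 and -0.18 for Mrps genes in IgG RIP. For Mrpl minus Mrps this gives -0.070 and -0.13 in the 2 IgG libraries. The value from the fitted fold changes of IgG RIP against input, given next, has the other sign. The median of Mrpl minus that of Mrps was 0.10 in IGF2BP1 RIP against IgG RIP, -0.06 in IGF2BP1 RIP against input and 0.07 in IgG RIP against input. Each of these changed sign when 1 library was left out, with values of -0.07 without IgG library 2, 0.05 without IGF2BP1 library 2, and -0.10, -0.11 and -0.09 without IgG library 1, IgG library 2 and input library 2. Without the members on a merged span the 3 values were -0.27, -0.15 and 0.25.

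Other genes of mitochondrial translation were read from lists fixed with earlier results of these data known. Of 5 mitochondrial ribosomal proteins with other symbols, 0 were called in any of the 3 comparisons. An unadjusted p under 0.05 in edgeR was found for 2, 0 and 0 of them in IGF2BP1 RIP over input, IGF2BP1 RIP over IgG RIP and IgG RIP over input. Of all tested genes 5.97%, 7.07% and 9.09% were called in that order, and 20.8%, 25.3% and 26.6% had such an unadjusted p. With 5 genes, 0 calls is close to the background. Aurkaip1, a small subunit protein, had 43.7 and 44.1 CPM in the IGF2BP1 pull-downs, 76.4 and 44.5 CPM in the IgG pull-downs and 86.2 and 87.1 CPM in the input libraries. Its IGF2BP1 libraries lay below both input libraries, at -0.98 ± 0.27 (SE, n = 2 each; adjusted p = 0.0850, edgeR). Dap3, a GTP-binding protein of the small subunit, was at 0.04 over input, Ptcd3, a small subunit protein with RNA-binding repeats, at 0.58, Chchd1, also of the small subunit, at -2.08 on 2.85 and 4.94 CPM in IGF2BP1 RIP, against 16.7 and 16.6 CPM in input, and Gadd45gip1, of the large subunit, at 0.25.

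Of 20 assembly factors of the mitochondrial ribosome 16 were in the table, 0 were called in IGF2BP1 RIP against either control, and 1, Fastkd2, was called higher in IgG RIP over input, at 1.52 (adjusted p = 0.0252, edgeR). In IGF2BP1 RIP 5.97% of all tested genes were called over input and 7.07% over IgG RIP, and 9.09% were called in IgG RIP over input. In lists as short as those given here, 0 or 1 call is close to these shares. Fastkd2 is an RNA-binding protein needed for the large subunit. The median of the 16 over input in IGF2BP1 RIP was 0.33, above 0 where that of the Mrpl and Mrps genes was below. Over all tested genes it was 0.00. The lists were not matched for length, so a difference between these classes of genes cannot be read. Of 15 translation factors, Tufm, the mitochondrial elongation factor that brings tRNA to the ribosome, was called higher in IGF2BP1 RIP over IgG RIP and lower in IgG RIP over input, and no other was called. Tufm had 107 and 101 CPM in the IGF2BP1 pull-downs, 53.5 and 46.7 CPM in the IgG pull-downs and 83.7 and 85.9 CPM in the input libraries. As for Mrpl42, both IgG libraries were lowest, with a log2 fold change of 1.06 ± 0.16 over IgG RIP (SE, n = 2 each; adjusted p = 0.0141, edgeR). Of 6 mitochondrial transcription factors 4 were in the table and 0 were called. In IGF2BP1 RIP over IgG RIP 1 had an unadjusted p under 0.05 in edgeR, as did 25.3% of all tested genes. With only the 2 groups of those comparisons in the model, the calls of Fastkd2 and Tufm were lost. The 2-group model of IGF2BP1 RIP over input called 3 of 15 translation factors higher and 1 lower. It called 2 of 16 assembly factors higher and 1 lower, and 1 of the 5 ribosomal proteins with other symbols higher and 2 lower. In that model 17.0% of tested genes were called higher and 19.1% lower. Fastkd2 and Tufm are named because they were the calls in their lists over all libraries. They were thus chosen after their values were seen.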

How the data were processed

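Per the labels, RIP libraries of mouse cultured germ stem cells were read as 150 bp paired ends. The authors deposited 1 table with a count and an FPKM column per library. The deposited count columns are read as estimated counts of fragments multiplied by 1 factor per library: 92.8% to 94.4% of values above 0 are whole multiples of a step of 0.954 to 1.03, within a tolerance of 0.01. The step was divided out and the values rounded. The deposited FPKM columns, as the authors made them, are not scaled to depth by their totals. They were used in alternatives and, with the counts, for the length index (median over libraries with at least 10 fragments). The submitters' processing notes name FastQC, cutadapt 1.9.3 and mm39. The aligner, the counting tool and the strand setting were not given in the sources used here. Coordinates are the file's, with 1 added to starts that it counts from 0, read as GRCm38, because 99.909% of 20874 genes matched to RefSeq overlap their GRCm38 position, as do all 77 members. Of the members, 31 carry a span merged with other genes, and no coordinates from the file are printed for those.

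All 6 libraries entered 1 edgeR 4.0.16 model (R 4.3.3; filterByExpr, TMM, quasi-likelihood test, 3 residual degrees of freedom), with p-values adjusted over 12053 genes. Alternatives used DESeq2 1.42.0, limma 3.58.1 on FPKM, other filters and scaling, 2-group models, the replicate number as a block, and each library left out. Members, lists and tests were chosen with earlier results of these data known. Text names members that were called, the 3 highest and 3 lowest of each subunit per comparison and by input level per length, the Mrps18 paralogs and the ribosomal proteins with other symbols. The number of counts limits precision, and errors cover the spread between libraries only.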

Additional observations from a re-analysis of the deposited data

How the results depend on the processing

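The main counts of members called, 4 for IGF2BP1 RIP against IgG RIP, 2 for IGF2BP1 RIP against input and 3 for IgG RIP against input, became 0, 20 and 1 with only the 2 groups in the model, where the spread of the other group is left out and 1.23%, 36.1% and 2.29% of all tested genes were called. On FPKM with 0.1 or 1 added they became 2, 16 and 17, with all 16 higher, where 2.68%, 27.8% and 25.1% of all tested genes were called with 0.1 added and 3.01%, 27.5% and 25.01% with 1 added, and the median of all genes shifted by 0.15, 0.81 and 0.64 with 0.1 added and by 0.11, 0.68 and 0.56 with 1 added. Relative to that shift the members' medians were 0.09, -0.26 and -0.27 with 0.1 added and 0.12, -0.19 and -0.19 with 1 added. In IGF2BP1 RIP against input, 1 member was called without a filter, where 3.53% of all tested genes were, and 0 in DESeq2, where 7.25% were, 44 of the 76 members had no adjusted p and 6 had an unadjusted p under 0.05. Of the 46 members not on a merged span, 2 were called over IgG RIP, 0 in IGF2BP1 RIP over input and 3 in IgG RIP over input. Of all tested genes, with or without a merged span, 7.07%, 5.97% and 9.09% were called. The shares among genes not on a merged span were not counted. Leaving out 1 library gave 0 to 35, 0 to 19 and 0 to 32 calls in the 3 comparisons. The higher numbers came without an IgG library, with 35 and 34, 19 and 19, and 32 and 30 calls, where 47.0% and 44.6%, 34.0% and 34.0%, and 46.4% and 43.4% of all tested genes were called.

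No deviation shared by replicate number was seen: the correlations of replicate 1 deviations were -0.004, 0.002 and 0.009. The labels do not tell if libraries of the same number were paired, and these values cannot settle it. With the replicate block 4, 1 and 2 members were called, where 4.94%, 4.52% and 6.83% of all tested genes were. Mrps21 over input then had an adjusted p of 0.0693, and Mrpl43 in IgG RIP over input 0.0781.

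The median of Mrpl minus Mrps was 0.22 over IgG RIP and -0.084 in IgG RIP over input with at least 10 fragments in every library. Without members on a merged span it was -0.27, -0.15 and 0.25 in the 3 comparisons. It was 0.12 in IgG RIP over input with Mrps30 and Mrps18a counted with the large subunit. Leaving out 1 library gave -0.071 to 0.23, -0.12 to 0.053 and -0.11 to 0.16.

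Some members changed direction and passed the test there. Over libraries left out, Mrpl18 ranged between -0.52 without IgG library 2 and 1.08 without IgG library 1 in IGF2BP1 RIP over IgG RIP. In IgG RIP over input Mrpl48 ranged between -1.97 without IgG library 1 and 1.30 without input library 2, and Mrps28 between -1.84 without IgG library 2 and 1.05 without IgG library 1. Mrpl34 was at 3.45 without IgG library 1 and -1.76 without IgG library 2 in IGF2BP1 RIP over IgG RIP, and at -4.27 and 0.93 in IgG RIP over input. On FPKM, which carries the shift above, Mrpl24 was at 0.57 and 0.55 and Mrpl42 at 0.87 and 0.86 in IGF2BP1 RIP over input. Mrps5 was at 0.79 and 0.78 in IgG RIP over input. The medians of all tested genes there were 0.81 and 0.68 in IGF2BP1 RIP over input, and 0.64 and 0.56 in IgG RIP over input. Mrpl24 thus stayed below other genes, and its change in direction is against 0 only. The cause of the changes in direction was not tested. Over the named members and alternatives, 1370 of 1472 values kept their sign, among them 102 that newly passed and 55 that no longer passed. The sign changed in 102, of which 54 were on FPKM and 11 passed the test with the other sign.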
